A study of Caenorhabditis elegans with 4 samples.

Results

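Potassium channel subunit genes were followed in larvae of the nematode Caenorhabditis elegans in which a DNA topoisomerase and the protein DPY-27 were removed together. The genes are those whose WormBase symbol starts with twk-, kvs-, kqt- or irk- and a number. This rule uses names and no measured value, but it was chosen with earlier results of these data known. The annotation holds 55 such genes, and 53 of them have a row in both deposited tables, out of 16623 genes present in both. These are 42 of 44 twk genes and all 5 kvs, 3 kqt and 3 irk genes. The missing genes are twk-6 and twk-37.

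RNA was sequenced from 2 libraries of AM11 worms, which carry top-2::degron::GFP together with the allele dpy-27::degron::GFP. It was also sequenced from 2 libraries of AM12 worms, which carry top-1::degron::GFP together with the same dpy-27 allele. Fold changes are over the control strain CA1200, for which this series lists no library of its own. The depleted worms were L2/L3 larvae, grown for 24 h at 22 °C from starved L1 larvae. They were then held for 2 h on 1 mM auxin, and the control was likewise taken after 2 h of auxin. How many CA1200 libraries were used, and their larval stage and batch, are unknown here. Whether the control differed from the depleted worms in stage or batch was not tested, and this bears on every fold change. A protein with a degron tag is destroyed when auxin is present and the cell also makes TIR1, an F-box protein of plants, and CA1200 is known as a strain that makes TIR1 in somatic cells. In AM11 the tagged proteins are TOP-2, a topoisomerase II, and DPY-27. In AM12 they are TOP-1, a topoisomerase I, and DPY-27. DPY-27 is a subunit of condensin DC, which lowers expression from the X chromosomes of hermaphrodites, and it is tagged in both strains, so no group lacks a topoisomerase alone. Whole larvae were used, and in such bulk RNA fewer cells of a type and less RNA per cell cannot be told apart. The series gives 1 table per strain, with 1 mean normalized count, 1 log2 fold change over CA1200 and 1 standard error (SE) per gene. No value per library is in these tables, so the spread between libraries enters only through the SE.

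Potassium channels let potassium leave the cell, which draws the membrane potential down and ends or prevents excitation in neurons and muscle. TWK proteins are two-pore channels, leak channels in which every subunit carries a pair of pore loops, and the worm has an expanded set of them. KVS proteins are voltage-gated, KQT proteins are voltage-gated relatives of the mammalian KCNQ channels, and IRK proteins are inward rectifiers, which pass current best near the resting potential.

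After removal of TOP-2 and DPY-27, 12 of the 53 genes differed from the control, 10 higher and 2 lower. With TOP-1 and DPY-27 removed, 16 differed, 8 higher and 8 lower. A difference means an adjusted p under 0.05 in the DESeq2 Wald test of the authors' deposited table, which was adjusted over all genes of that table. Of all genes tested, 21.5% were called after removal of TOP-2 and DPY-27 (14.1% higher, 7.47% lower), close to the 22.6% of the channel genes. For the removal of TOP-1 and DPY-27 the background was 29.9% (17.1% higher, 12.8% lower), and 30.2% of the channel genes were called. Both shares of the channel genes lay near the background. In both tables irk-2, twk-11, twk-18, twk-25, twk-26, twk-33 and twk-35 were higher, and twk-2 and twk-48 were lower. Both comparisons use the CA1200 control, so these calls are not independent of each other. In neither table were 34 of the genes called. The shares of all genes called in both tables, in either table alone or in neither are not given, so these overlaps have no background.

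**Figure D1:**
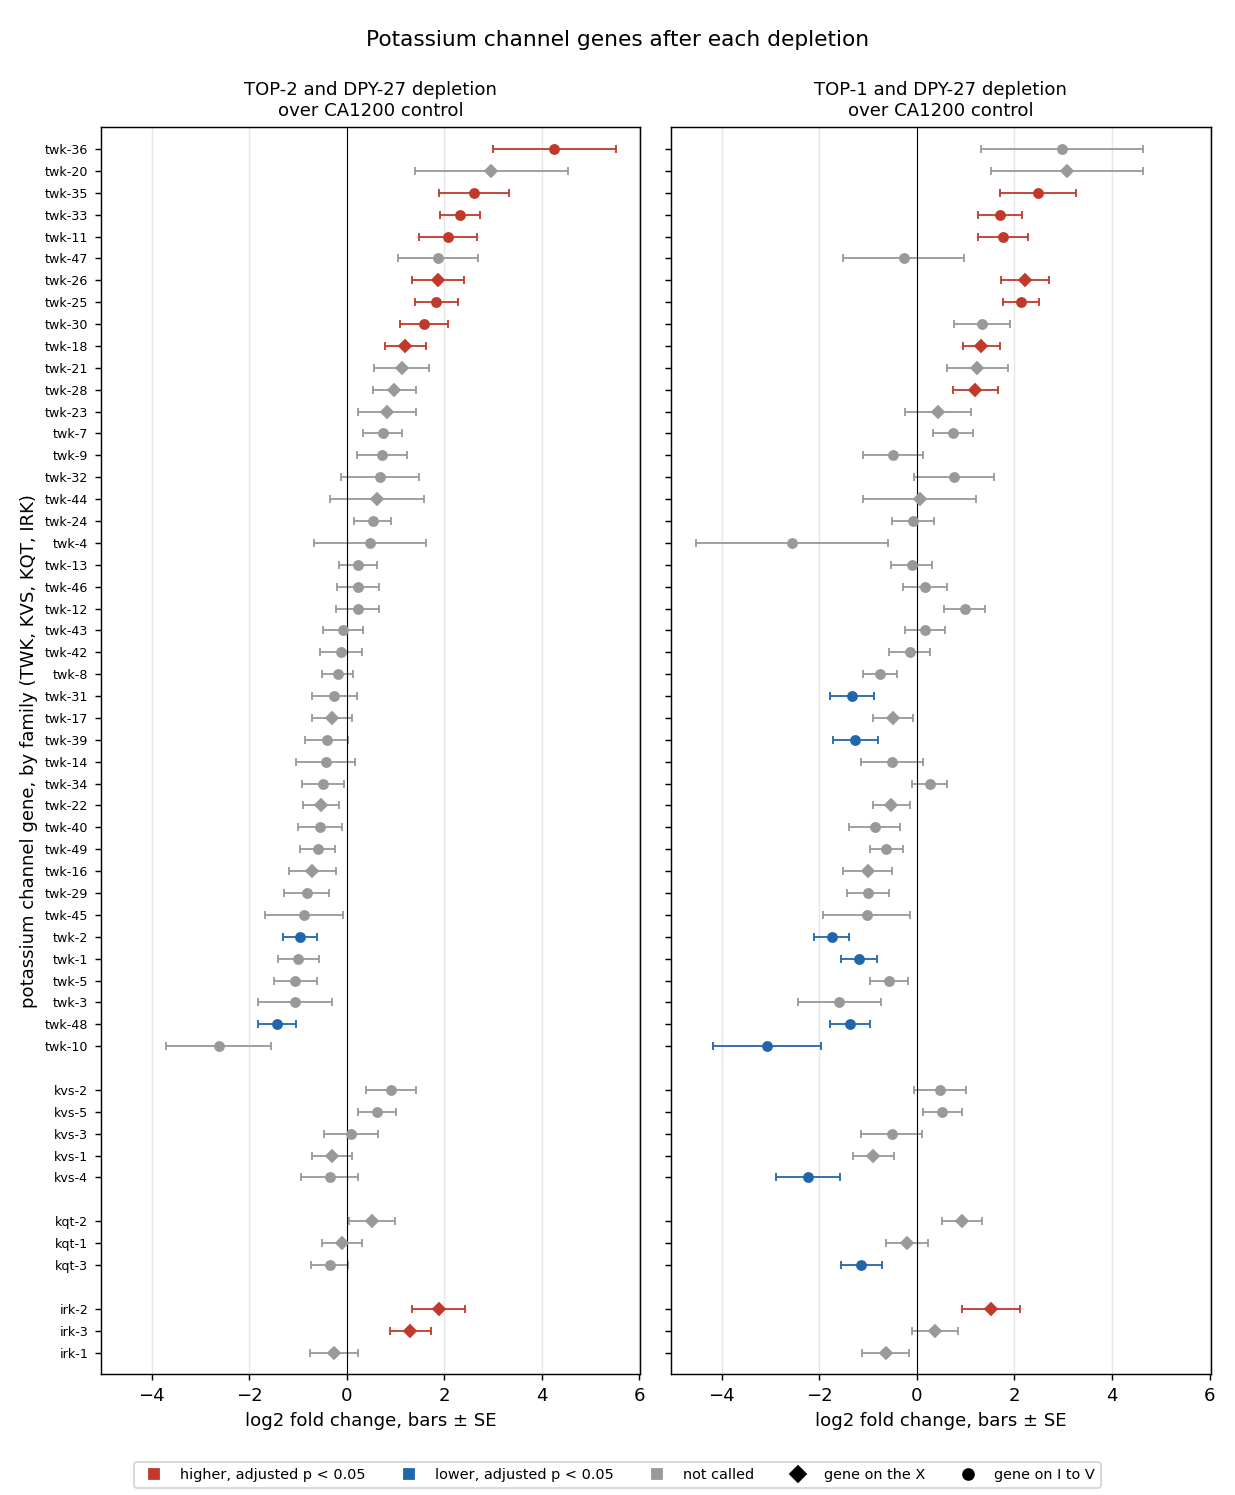
Log2 fold change (horizontal axis, bars ± SE) of 53 potassium channel genes after removal of TOP-2 and DPY-27 (left) and of TOP-1 and DPY-27 (right), each over the CA1200 control, by family from top to bottom. Red and blue mark genes with an adjusted p under 0.05, higher or lower, grey the others, diamonds genes on the X. The highest gene is twk-36 on the left, at 4.26, and the lowest is twk-10 on the right, at -3.08.

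The inward rectifier genes, all on the X, differed in their calls. For irk-2 (M02A10.2) the authors' deposited table gave a log2 fold change of 1.89 ± 0.54 (SE, 3.69-fold, adjusted p 0.00395, DESeq2) after removal of TOP-2 and DPY-27, at a mean normalized count of 57.5. It stood at 1.52 ± 0.59 after removal of TOP-1 and DPY-27 in the authors' deposited table (adjusted p 0.0348, DESeq2). The gene irk-3 (K04G11.5) rose after removal of TOP-2 and DPY-27, to 1.31 ± 0.41 in the authors' deposited table (2.48-fold, adjusted p 0.0106, DESeq2). Removal of TOP-1 and DPY-27 left irk-3 at 0.37 ± 0.48, not called, in the authors' deposited table (adjusted p 0.609, DESeq2). The third, irk-1 (R03E9.4), acts in the egg-laying HSN neurons downstream of a neuropeptide receptor. It stood below the control in the authors' deposited tables, at -0.26 ± 0.49 and -0.64 ± 0.49 after removal of TOP-2 and of TOP-1 with DPY-27, with neither value called. All X genes tested had medians of 0.58 and 0.75. The X medians subtracted here and below were 0.54 and 0.68, taken where the mean count reached 10. With the X median subtracted irk-2 no longer passed, at 1.34 and 0.84 after removal of TOP-2 and of TOP-1 with DPY-27 (adjusted p 0.0699 and 0.356, Wald test on the authors' DESeq2 SE). Likewise irk-3 no longer passed, at 0.76 after removal of TOP-2 and DPY-27 (adjusted p 0.235 in the same test), and turned to -0.31 after removal of TOP-1 and DPY-27. By contrast irk-1 newly passed as lower at that setting after removal of TOP-1 and DPY-27, as given further on.

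Of the KCNQ-like genes kqt-3 was called as deposited, after removal of TOP-1 and DPY-27, but which gene passed depended on the scaling. With the autosomal median subtracted, in that comparison, kqt-3 no longer passed (adjusted p 0.0639) and kqt-2 did, at 1.07 (adjusted p 0.0431, both by the Wald test on the authors' DESeq2 SE). The gene kqt-3 (Y54G9A.3, chromosome II) and its relative kqt-2 work in the intestine, where they help to time the defecation rhythm. The authors' deposited table had kqt-3 at -0.35 ± 0.38 after removal of TOP-2 and DPY-27 (adjusted p 0.584, DESeq2), and at -1.14 ± 0.42 after removal of TOP-1 and DPY-27 (2.21-fold lower, adjusted p 0.025). On the X, kqt-2 (M60.5) was at 0.52 ± 0.46 after removal of TOP-2 and DPY-27 and 0.92 ± 0.42 after removal of TOP-1 and DPY-27 in the authors' deposited tables (adjusted p 0.482 and 0.078, DESeq2). Also on the X, kqt-1 (C25B8.1), active in pharyngeal muscle and in mechanosensory and chemosensory neurons, lay near the control in the authors' deposited tables, at -0.09 ± 0.41 and -0.21 ± 0.43. The intestine markers elt-2, ges-1, pept-1, ifb-2, act-5, asp-1 and cpr-1 had a median log2 fold change of 0.39 and 0.55 in the authors' deposited tables, with 2 and 3 of 7 called higher and none lower. Pharynx muscle markers, in whose tissue kqt-1 is found, were far higher, with 6 of 6 called and medians of 6.05 and 5.60. The part of either tissue in the kqt values was not tested.

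Among the voltage-gated KVS genes kvs-4 alone was called. With TOP-2 and DPY-27 removed the authors' deposited table had kvs-4 (Y48A6B.6, chromosome III) at -0.35 ± 0.58 (adjusted p 0.737, DESeq2). After removal of TOP-1 and DPY-27 kvs-4 stood in the authors' deposited table at -2.23 ± 0.66 (4.70-fold lower, adjusted p 0.00396, DESeq2), at a mean normalized count of 46.4. Exons on the opposite strand cover part of kvs-4, 10.6% of its exonic bases, and no source used here says whether reads were counted by strand. The X-linked kvs-1 (C53C9.3), whose channel works with the accessory subunit MPS-1 in chemosensory neurons, was at -0.30 ± 0.41 and -0.89 ± 0.43 in the authors' deposited tables after removal of TOP-2 and of TOP-1 with DPY-27. The other three, kvs-2, kvs-3 and kvs-5, ran in the authors' deposited tables between 0.09 and 0.91 after removal of TOP-2 and DPY-27, and between -0.52 and 0.52 after removal of TOP-1 and DPY-27. None of these values was called.

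The two-pore TWK genes, 42 of the 53, made up most of the set and held most of the calls. After removal of TOP-2 and DPY-27, 8 of 42 were higher and 2 lower (background 14.1% higher, 7.47% lower). With TOP-1 and DPY-27 removed, 7 were higher and 6 lower (background 17.1% higher, 12.8% lower). The most abundant of all 53 genes per length was twk-18 (C24A3.6, X), a channel of body wall muscle whose gain-of-function mutants are paralysed. The authors' deposited table gave twk-18 a log2 fold change of 1.20 ± 0.42 after removal of TOP-2 and DPY-27 (2.30-fold, adjusted p 0.022, DESeq2) at a mean normalized count of 1519. The authors' deposited table for the removal of TOP-1 and DPY-27 had twk-18 at 1.32 ± 0.38 (2.49-fold, adjusted p 0.00294, DESeq2). Body wall muscle markers were near the control in the same libraries, with medians of 0.23 and 0.28 and 1 of 7 called in each table. The called ones were unc-89 after removal of TOP-2 and DPY-27, at 1.32 ± 0.46 and so above twk-18, and unc-27 after removal of TOP-1 and DPY-27, at 0.92 ± 0.30, in the authors' deposited tables. X genes tested had medians of 0.58 and 0.75. With the X median of genes whose mean count reached 10 subtracted (0.54 and 0.68), twk-18 no longer passed in either table. The part of muscle in the twk-18 values was not tested.

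Further TWK genes rose in both tables, on autosomes and on the X. On chromosome V, twk-33 (W06D12.5) was at 2.32 ± 0.42 in the authors' deposited table after removal of TOP-2 and DPY-27 (adjusted p 5.51e-07, DESeq2), the smallest p among the channel genes there. With TOP-1 and DPY-27 removed twk-33 was at 1.71 ± 0.45 in the authors' deposited table (adjusted p 0.00114, DESeq2). On chromosome IV, twk-25 (M04B2.5) was at 1.84 ± 0.45 after removal of TOP-2 and DPY-27 in the authors' deposited table (adjusted p 0.00041, DESeq2). It was at 2.14 ± 0.37 after removal of TOP-1 and DPY-27 in the authors' deposited table (4.41-fold, adjusted p 9.64e-08, DESeq2), the smallest p among the channel genes in that comparison. On the X, twk-26 (C33D12.3) stood at 1.87 ± 0.53 and 2.22 ± 0.50 in the authors' deposited tables after removal of TOP-2 and of TOP-1 with DPY-27 (adjusted p 0.00367 and 7.67e-05, DESeq2). With the X median subtracted twk-26 no longer passed after removal of TOP-2 and DPY-27, but still passed after removal of TOP-1 and DPY-27. Also on chromosome V, twk-11 (F20A1.7), which encodes the longest protein of the set at 1720 residues, was at 2.08 ± 0.60 and 1.77 ± 0.51 in the authors' deposited tables (adjusted p 0.00407 and 0.00315, DESeq2). The low-abundance twk-35 (F31D4.7, chromosome V) was at 2.61 ± 0.72 and 2.49 ± 0.78 in the authors' deposited tables (adjusted p 0.00243 and 0.00693, DESeq2), at mean normalized counts of 27.2 and 24.5.

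Called in 1 table only were 3 more rises. After removal of TOP-2 and DPY-27 twk-36 (R12G8.2, chromosome V) was at 4.26 ± 1.26 in the authors' deposited table (adjusted p 0.00554, DESeq2), on a mean normalized count of only 13.2. The authors' deposited table for the removal of TOP-1 and DPY-27 had twk-36 at 2.98 ± 1.66 with a mean normalized count of 5.57 (adjusted p 0.171, DESeq2). On chromosome I, twk-30 (F36A2.4) was at 1.59 ± 0.49 and 1.33 ± 0.57 in the authors' deposited tables after removal of TOP-2 and of TOP-1 with DPY-27, and only the first was called (adjusted p 0.00814 and 0.0651, DESeq2). With the autosomal median subtracted twk-30 passed after removal of TOP-1 and DPY-27 too, at 1.47 (adjusted p 0.0438, Wald test on the authors' DESeq2 SE). So did twk-12, at 1.12 (adjusted p 0.0332), which was not called as deposited, at 0.98 ± 0.42 in the authors' deposited table (adjusted p 0.0615, DESeq2). The X-linked twk-28 (C52B9.6) was at 0.98 ± 0.45 and 1.20 ± 0.46 in the authors' deposited tables in the same order, and only the second was called (adjusted p 0.108 and 0.033, DESeq2). With the X median subtracted twk-28 no longer passed after removal of TOP-1 and DPY-27. For twk-28 exons of other genes overlap 14.3% of the exonic bases.

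On the deposited scale the lower TWK genes were all autosomal, while subtracting the X median added X-linked ones, given further on. The gene twk-2 (T12C9.3, chromosome II) was at -0.95 ± 0.35 after removal of TOP-2 and DPY-27 (adjusted p 0.0355) and at -1.75 ± 0.35 after removal of TOP-1 and DPY-27 (3.36-fold lower, adjusted p 1.04e-05) in the authors' deposited tables from DESeq2. On chromosome III, twk-48 (K11H3.7) was at -1.43 ± 0.39 and -1.38 ± 0.41 in the authors' deposited tables after removal of TOP-2 and of TOP-1 with DPY-27 (adjusted p 0.00195 and 0.00417, DESeq2). These were the lower genes of both tables. Called lower only after removal of TOP-1 and DPY-27 were 4 further TWK genes. After removal of TOP-2 and of TOP-1 with DPY-27, twk-1 (F21C3.1, chromosome I) was at -0.99 ± 0.43 and -1.19 ± 0.37 (adjusted p 0.084 and 0.00609) and twk-10 (K04A8.4, chromosome V) at -2.62 ± 1.08 and -3.08 ± 1.10 (adjusted p 0.0645 and 0.0212) in the authors' deposited tables from DESeq2. On chromosome III the authors' deposited tables had twk-31 (Y47D3B.5) at -0.25 ± 0.47 and -1.33 ± 0.45 (adjusted p 0.769 and 0.0152, DESeq2) and twk-39 (C24H11.8) at -0.41 ± 0.44 and -1.26 ± 0.46 (adjusted p 0.575 and 0.025, DESeq2). For twk-10 the mean normalized count was 14.2 and 13.2, so its fold change is poorly fixed.

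Of the 34 channel genes called in neither table, the KQT and IRK genes aside, the highest mean normalized counts after removal of TOP-2 and DPY-27 were those of twk-49, twk-8 and kvs-5. In the authors' deposited tables twk-49 (R05G9.2) was at -0.59 ± 0.36 and -0.63 ± 0.33, twk-8 (ZC410.4) at -0.18 ± 0.31 and -0.76 ± 0.36, and kvs-5 (Y55F3C.3) at 0.62 ± 0.38 and 0.52 ± 0.40. Other genes overlap 29.4% of the exonic bases of twk-49. The TWK genes twk-7 and twk-40, which have a known role in locomotion, were also not called. The first, twk-7 (F22B7.7), acts in cholinergic motor neurons and was at 0.74 ± 0.40 in both authors' deposited tables (adjusted p 0.196 and 0.163, DESeq2). The second, twk-40 (T28A8.1), dampens the activity of AVA premotor interneurons and of motor neurons and was at -0.55 ± 0.45 and -0.87 ± 0.53. Both were named after their values were seen. Precision limits what could be called, since 6 of 17 channel genes that lay at least 1 log2 unit from the control after removal of TOP-2 and DPY-27 did not pass, and 9 of 25 after removal of TOP-1 and DPY-27.

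By chromosome, 16 channel genes lie on the X and 37 on autosomes. Loss of DPY-27 bears on X-linked genes, so each is set beside the genes of its own chromosome class. The X-linked channel genes had a median log2 fold change of 0.72 after removal of TOP-2 and DPY-27, against 0.58 for all 2330 X genes tested. It was 0.21 with a floor of 50 on the mean count. With the X median of genes whose mean count reached 10 subtracted (0.54 here, 0.68 for TOP-1 and DPY-27), it was 0.18. For the removal of TOP-1 and DPY-27 the median of the X-linked channel genes was 0.41, against 0.75 for all 2325 X genes tested. It turned to -0.21 with a floor of 50 and to -0.27 with the X median subtracted. The median of all X genes at a floor of 50 is not given, so the floored values have no background. Above the control lay 10 of 16 (62.5%) in both tables, against 78.5% and 79.3% of all X genes tested. Of the 16 genes 4 (25%) were in each table called higher and none lower, against 24.5% and 34.5% of X genes called higher and 2.27% and 3.57% called lower. The 6 X-linked genes below the control in both authors' deposited tables were irk-1, kqt-1, kvs-1, twk-16, twk-17 and twk-22. With the same X median subtracted, the lower X-linked genes that passed were twk-22 after removal of TOP-2 and DPY-27, at -1.06 (adjusted p 0.0279, Wald test on the authors' DESeq2 SE). With TOP-1 and DPY-27 removed they were twk-16 at -1.69, kvs-1 at -1.57, irk-1 at -1.32, twk-22 at -1.21 and twk-17 at -1.18, with adjusted p between 0.00184 and 0.0336 in the same test. The share of all X genes that passed as lower at this setting is not given, so these calls have no background. The shares of X genes above are for the deposited scale.

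**Figure D2:**
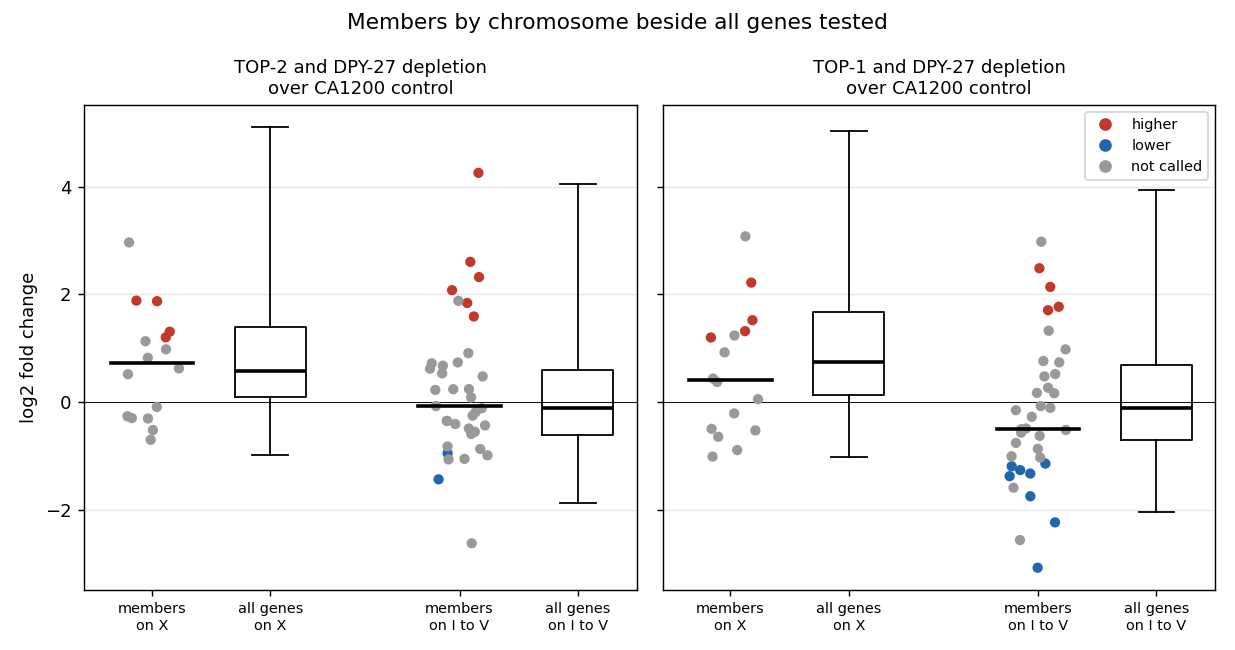
Log2 fold change over the CA1200 control (vertical axis) of channel genes on the X and on chromosomes I to V (points, bar at the median), each beside all genes tested on the same chromosomes (box from the first to the third quartile, line at the median, whiskers from the 5th to the 95th percentile), after removal of TOP-2 and DPY-27 (left) and of TOP-1 and DPY-27 (right). On this deposited scale no X-linked channel gene was called lower, and the median of the autosomal channel genes lay at -0.07 on the left and -0.49 on the right.

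The 37 autosomal channel genes had a median of -0.07 after removal of TOP-2 and DPY-27, against -0.10 for all autosomal genes tested (subtracting the autosomal median turned their median to 0.06), and 6 were called higher (16.2%, background 12.1%) and 2 lower (5.41%, background 8.43%). With TOP-1 and DPY-27 removed their median was -0.49, against -0.10 for all autosomal genes tested. Calls there comprised 4 higher (10.8%, background 13.9%) and 8 lower genes (21.6%, background 14.5%). The split into higher and lower calls moved with the scaling. With the median of X or autosomal genes subtracted it was 6 higher and 2 lower after removal of TOP-2 and DPY-27, and 7 higher and 11 lower after removal of TOP-1 and DPY-27. With only the autosomal median (-0.13 and -0.14, taken where the mean count reached 10) subtracted from every gene it was 10 higher and 1 lower, and 11 higher and 6 lower. Subtraction moves the calls of all genes too. The shares of all genes called at these scalings are not given, so these splits have no background.

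Levels were compared per length, as mean normalized counts per kb of exonic sequence, a mean over depleted and control libraries. Most channel genes lay below the median protein-coding gene. Their median was 68.7 normalized counts per kb for the removal of TOP-2 and DPY-27, against 114 for all 16237 protein-coding genes, and 55.5 for the removal of TOP-1 and DPY-27, against 105 for 16472. The order was led by twk-18 at 780 and 803, followed by twk-49 at 385 and 369 and twk-8 at 330 and 271. The IRK genes lay between 24.8 and 59.6 in the first table, and the KQT genes between 69.7 and 107. Among the KVS genes kvs-5 stood out at 182, with the others between 26.0 and 76.0. At the low end twk-4 had 2.30 and 1.08, and 69.3% of its exonic bases overlap other genes. The 8 genes lower in either table had a median of 111 in the first table and the 11 higher ones 51.6, while the 34 others had 61.6. As genes the members were long, with a median span of 5826 bases from start to end, against 2325 for all protein-coding genes of the first table.

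**Figure D3:**
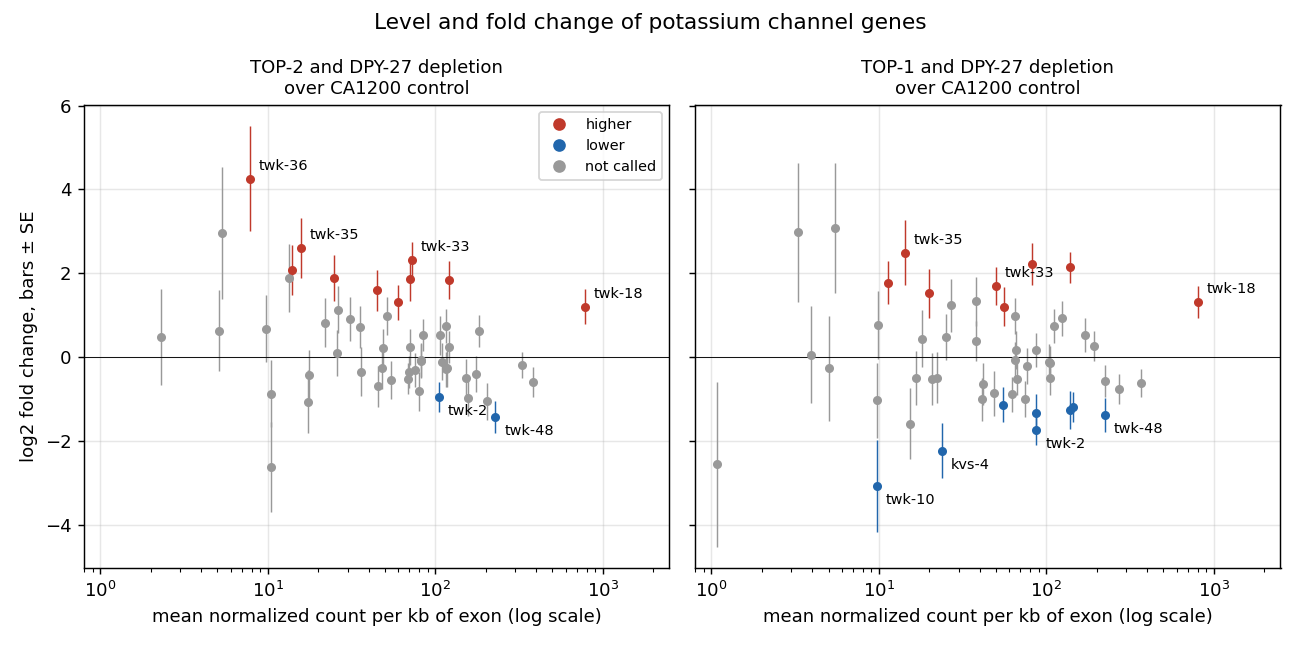
Log2 fold change over the CA1200 control (vertical axis, bars ± SE) against the mean normalized count per kb of exon (horizontal axis, log scale) for 53 channel genes, after removal of TOP-2 and DPY-27 (left) and of TOP-1 and DPY-27 (right). Red and blue points were called higher or lower, and 8 of the called genes are labelled where called. SEs widen toward the left, and twk-18 lies apart at the right, at 780 and 803.

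A direct comparison of both depletions took, for every gene, the log2 fold change with TOP-2 and DPY-27 removed minus that with TOP-1 and DPY-27 removed, with the control strain common to both. Each table was normalized by itself, and both SEs were taken as independent, which overstates the error. Of the 48 channel genes with a mean of at least 10 in both tables none passed a Benjamini-Hochberg adjusted p under 0.05 over 13027 genes, of which 0.115% passed. At an unadjusted p under 0.05 there was 1 channel gene, against 4.62% of all genes. This was kvs-4, with a difference of 1.88 ± 0.88 (SE, 95% interval 0.16 to 3.61, unadjusted Wald p 0.0319, adjusted p 0.964). With a correlation of 0.5 assumed between the tables the adjusted p of kvs-4 was 0.0779, and over that and the other alternatives that kept it the range was 0.0779 to 1.00. The calls in 1 table only are thus not shown to differ between the depletions. For irk-3 the difference was 0.93 (95% interval -0.30 to 2.17), for kqt-3 0.79 (-0.32 to 1.91), for twk-31 1.08 (-0.20 to 2.35) and for twk-2 0.80 (-0.18 to 1.78). Of the 48 genes 35 had a difference above 0, with a median of 0.20, against a median of 0.04 and 53.3% above 0 over all genes.

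**Figure D4:**
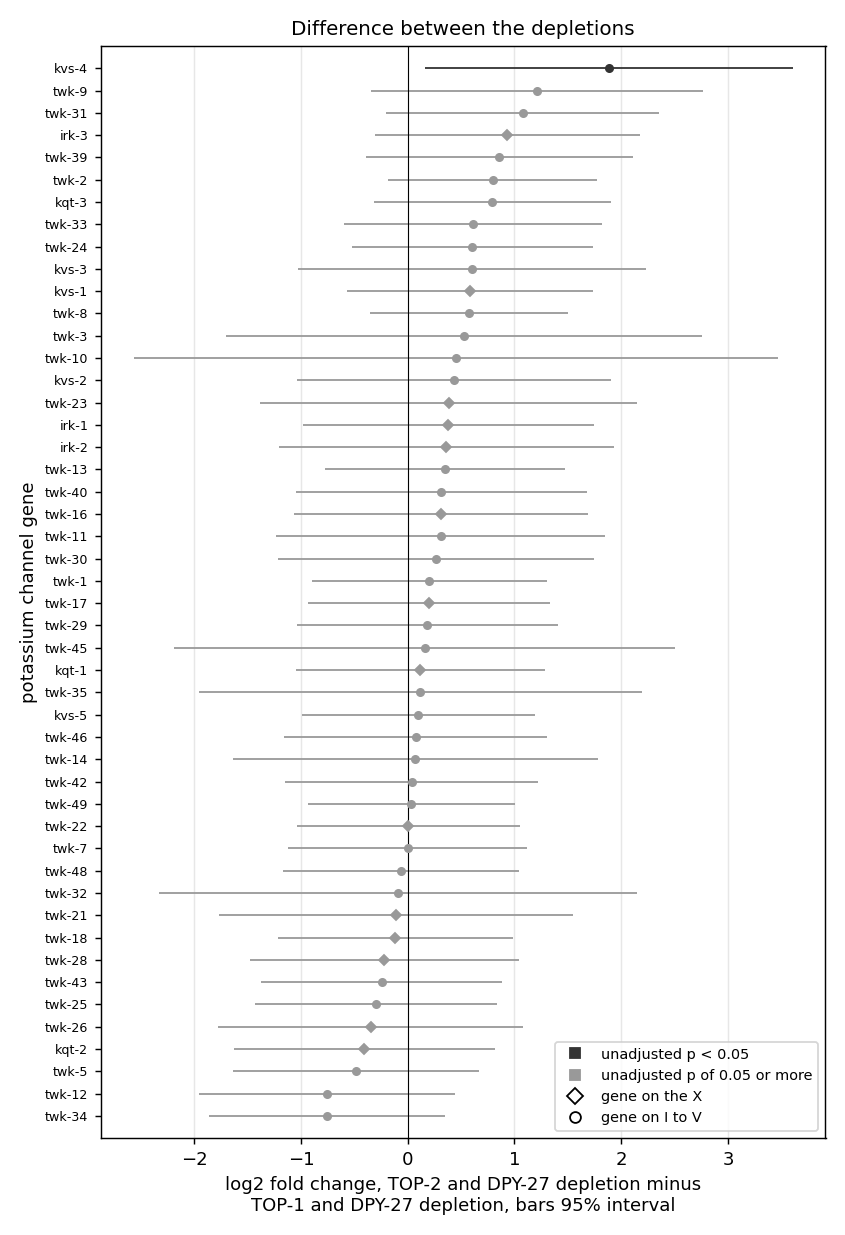
Difference in log2 fold change (horizontal axis, bars 95% interval), removal of TOP-2 and DPY-27 minus removal of TOP-1 and DPY-27, for the 48 channel genes whose mean normalized count reached 10 in both tables. Diamonds mark genes on the X. Only the interval of kvs-4, at the top, lies wholly above 0.

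Other potassium channel genes, outside these name families, were called in the lower direction only. Of 16 measured pore-forming subunit genes 3 were called lower and none higher after removal of TOP-2 and DPY-27 (background 7.47% lower, 14.1% higher), with a median of -0.34. With TOP-1 and DPY-27 removed 9 were lower and none higher (background 12.8% lower, 17.1% higher), with a median of -1.21. The lowest values after removal of TOP-1 and DPY-27 were those of egl-23, a further two-pore channel, kcnl-1, a calcium-activated SK channel, and slo-1, the BK channel. The authors' deposited table for the removal of TOP-2 and DPY-27 gave egl-23 at -1.38 ± 0.39 and kcnl-1 at -1.25 ± 0.38, both called, and slo-1 at -0.34 ± 0.37, not called. The authors' deposited table for the removal of TOP-1 and DPY-27 had egl-23 at -3.61 ± 0.41, kcnl-1 at -2.65 ± 0.38 and slo-1 at -2.43 ± 0.38. The EAG channel gene egl-2 was called lower in both authors' deposited tables, at -1.18 ± 0.40 and -1.84 ± 0.40. Lower only in the authors' deposited table for the removal of TOP-1 and DPY-27 were also unc-103, the ERG channel, at -1.47 ± 0.35, kcnl-4 at -1.74 ± 0.51, shw-3 at -1.26 ± 0.41, shl-1, the Shal channel, at -1.23 ± 0.41, and kcnl-2 at -0.96 ± 0.39. Of the differences between the depletions those of slo-1, 2.09 ± 0.54, and egl-23, 2.22 ± 0.57, had an adjusted p of 0.0578 by the Wald test and the others were further from the threshold. With a correlation of 0.5 assumed between the tables the adjusted p of both was 2.4e-05, and kcnl-1, with a difference of 1.40, also passed (adjusted p 0.0166), so these 3 of 16 calls rest on that assumption. Under it the calls over all 13027 genes rose too, from 0.115% to the counts given further on.

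Of 12 measured accessory subunit and regulator genes, a list that includes sodium pump subunits, 1 was called higher after removal of TOP-2 and DPY-27 (background 14.1%). With TOP-1 and DPY-27 removed 2 were higher (background 17.1%). The gene dpf-6, a dipeptidyl peptidase relative, was higher in both authors' deposited tables, at 3.01 ± 0.41 and 2.51 ± 0.40. The sodium pump beta subunit gene nkb-3 was called higher only in the authors' deposited table for the removal of TOP-1 and DPY-27, at 0.90 ± 0.30. The other members did not pass in either table, and mps-1, the partner of kvs-1, was at -0.72 ± 0.49 and -1.27 ± 0.55. Among 10 measured calcium and sodium leak channel genes, which depolarize the cell, none was called after removal of TOP-2 and DPY-27 (background 21.5%), with a median of -0.15. In the comparison for TOP-1 and DPY-27, 4 were lower and none higher (background 12.8% lower, 17.1% higher), with a median of -0.72. In the authors' deposited table these were unc-79 at -1.97 ± 0.41 and unc-80 at -1.08 ± 0.40, both of the sodium leak channel complex, and the calcium channel subunit genes unc-36 at -1.30 ± 0.35 and ccb-1 at -0.86 ± 0.35.

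**Figure D5:**
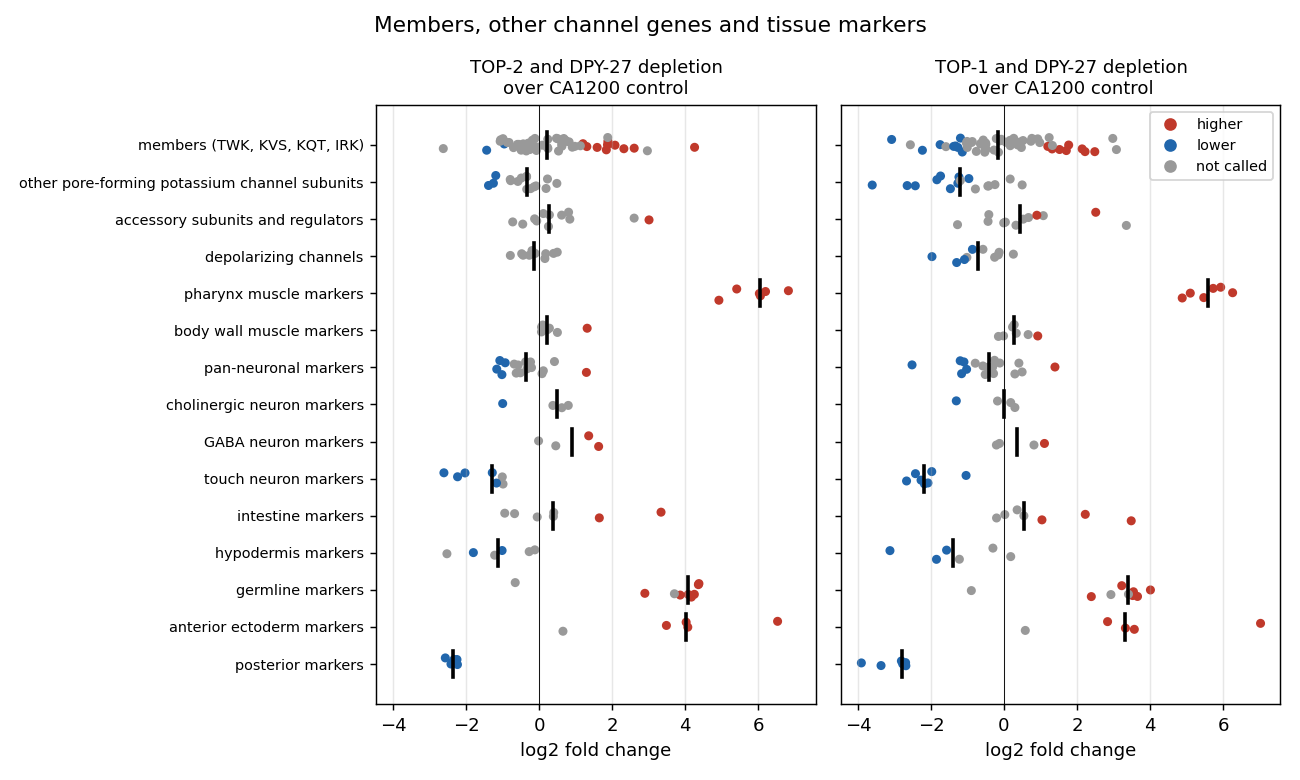
Log2 fold change over the CA1200 control (horizontal axis) of the 53 channel genes, of other channel genes and of tissue markers, by list from top to bottom, after removal of TOP-2 and DPY-27 (left) and of TOP-1 and DPY-27 (right). Points are genes, red if called higher, blue if called lower and grey otherwise, and the bar is the median. The medians of pharynx muscle markers lie at 6.05 and 5.60, those of posterior markers at -2.35 and -2.79.

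Markers of some tissues were called in large part in the same tables, and those of others were mostly not called. Pan-neuronal markers had a median of -0.37 after removal of TOP-2 and DPY-27, with 1 of 17 called higher and 4 lower, and of -0.42 after removal of TOP-1 and DPY-27, with 1 higher and 5 lower. Touch neuron markers were lower in 5 of 7 cases and in 7 of 7, with medians of -1.28 and -2.18. Cholinergic markers had medians of 0.50 and 0.00, with 1 of 4 lower in each table, and GABA neuron markers 0.91 and 0.35, with 2 and 1 of 4 higher. Anterior ectoderm markers were higher in 4 of 5 cases in each table, with medians of 4.03 and 3.32, and posterior markers lower in 6 of 6, with medians of -2.35 and -2.79. Germline markers were higher in 7 and 6 of 9 cases, with medians of 4.09 and 3.41, and hypodermis markers lower in 2 and 3 of 6, with medians of -1.11 and -1.40. No listed marker gene found in these tables had a value per library, so levels by group are not given. The part of these tissues in the channel values was not tested.

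For the tagged genes no transcript passed the test in the authors' deposited tables. After removal of TOP-2 and DPY-27, top-2 was at -0.17 ± 0.36 and dpy-27 at -0.13 ± 0.41, and after removal of TOP-1 and DPY-27, top-1 was at -0.17 ± 0.31 and dpy-27 at -0.55 ± 0.37. Because the degron acts on protein, transcript levels cannot check the labels.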

How the data were processed

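Per the labels' protocols, poly(A) RNA of whole larvae was made into strand-specific libraries by the dUTP method. DESeq2 1.30.0, HISAT2 2.2.1, HTSeq 0.13.5, Cufflinks 2.2.1 and CASAVA 1.8 are named in the submitters' processing notes; the role of each, the genome build and whether counting used strand are not given in the sources used here. The authors deposited 1 table per depletion with, per the file headers, a mean normalized count (a signal averaged over libraries), a log2 fold change over the control, its SE (not a value per library), a Wald statistic (a score), and a p-value and adjusted p-value. Counts per library are not analysed here, so depth per library is unknown, and precision is that of the authors' SE. Nothing says that libraries came from separate cultures, so p-values measure only the spread between these libraries, which may be technical.

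Gene names, lengths and gene order came from Ensembl release 115 (WBcel235), and 17161 of 17491 gene IDs matched. A gene was called at the authors' adjusted p under 0.05. The difference between depletions was a Wald test on the authors' log2 fold changes and SEs, with Benjamini-Hochberg adjustment over the 13027 genes whose mean reached 10 in both tables, in Python 3.11.15 with scipy 1.17.1, tested on simulated data. Alternatives were other floors (none, 10 and 50), a threshold of 0.01, a minimum of 1 on the absolute log2 fold change, subtraction of chromosome medians and, for the difference, a correlation of 0.5. Named are the channel genes called in any comparison, all kqt and irk genes, the 3 other uncalled channel genes with the highest mean, and called genes of the other channel lists. Members and lists were chosen with earlier results of these data known.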

Additional observations from a re-analysis of the deposited data

How the results depend on the processing

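No called gene changed sign under the alternatives run. Of the results for the single channel genes named here 481 stayed on their side of the threshold, 11 passed it newly, 23 no longer passed and 5, none called, crossed 0. With the X or autosomal median subtracted the last were kqt-2 at -0.026 and twk-42 at 0.016 after removal of TOP-2 and DPY-27, and irk-3 at -0.31 after removal of TOP-1 and DPY-27. With the autosomal median alone subtracted they were kqt-1 at 0.038 and twk-42 at 0.016 after removal of TOP-2 and DPY-27. No paired analysis was possible because the deposited tables hold no value per library, and leaving out each replicate in turn was not run for the same reason. After removal of TOP-2 and DPY-27, a floor of 50 on the mean left 1320 of all genes higher and an X-linked channel median of 0.21; a threshold of 0.01 left 678 of all genes lower. The lower channel genes fell to 1 at a threshold of 0.01, with a minimum of 1 on the absolute log2 fold change and with the autosomal median subtracted. Subtracting the X or autosomal median gave 6 higher channel genes and an X-linked median of 0.18. It kept 7 of the 12 calls, without irk-2, irk-3, twk-2, twk-18 and twk-26. After removal of TOP-1 and DPY-27, a floor of 50 left 1592 of all genes higher and an X-linked channel median of -0.21, and a threshold of 0.01 left 4 lower channel genes. Subtracting the X or autosomal median gave an X-linked median of -0.27 and kept 11 of the 16 calls, without irk-2, kqt-3, twk-18, twk-28 and twk-39. For the difference between depletions, a correlation of 0.5 gave 225 genes higher and 96 lower of 13027 tested. Of the 16 other pore-forming potassium channel genes 3 passed at that setting. Centring on the autosomal median gave 10 lower. No twk, kvs, kqt or irk gene was called in any of these. Floors test fewer genes by construction, and for the other changes the cause was not tested. Shares of all genes called with medians subtracted are not given, so those channel gene counts have no background. SE was over 1 for 4 channel genes in the first table and 6 in the second. Of the 34 uncalled channel genes 11 had a mean normalized count under 50 in both. Whether low counts kept genes from being called was not tested.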

Other observations

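Some channel genes lie close together in gene order. On chromosome V, twk-33, twk-42 and twk-36 lie with 2 and 1 protein-coding genes between them. After removal of TOP-2 and of TOP-1 with DPY-27, the authors' deposited tables had twk-33 at 2.32 ± 0.42 and 1.71 ± 0.45, both called, and twk-36 at 4.26 ± 1.26, called, and 2.98 ± 1.66, not called. Between them twk-42 was at -0.11 ± 0.44 and -0.15 ± 0.42 in the authors' deposited tables. On the X, twk-26 and twk-16 lie on opposite strands with 3 protein-coding genes between them, and the authors' deposited tables had twk-26 at 1.87 ± 0.53 and 2.22 ± 0.50 and twk-16 at -0.70 ± 0.49 and -1.01 ± 0.51. Also on the X, twk-21 and twk-22 are adjacent on the same strand, and the authors' deposited tables had twk-21 at 1.13 ± 0.57 and 1.24 ± 0.63 and twk-22 at -0.52 ± 0.37 and -0.53 ± 0.38. No test of these differences between neighbours was made. Around twk-40, 7 measured protein-coding neighbours had a median log2 fold change of 1.85 and 1.96 in the authors' deposited tables, while twk-40 itself was at -0.55 ± 0.45 and -0.87 ± 0.53. Around twk-31, the neighbours had medians of -1.03 and -1.25, and twk-31 was at -0.25 ± 0.47 and -1.33 ± 0.45 in the authors' deposited tables. Around twk-14, 3 neighbours had medians of 4.81 and 3.68, while twk-14 was at -0.43 ± 0.60 and -0.50 ± 0.64 in the authors' deposited tables. No rule set beforehand picked these genes, so they do not stand for the set.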
